A study of Mus musculus with 12 samples.

Results

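Matrix glycoproteins and proteoglycans were followed as a set of 46 named genes out of the 23337 gene symbols in the deposited count tables. The genes come from a list of symbols drawn up with earlier results of these data known, and each of the 46 was found in both tables. They were divided by role into 7 genes of wound-type matrix and 39 genes of resident matrix. The resident genes were 8 small proteoglycans and collagen-associated stromal proteins, 15 elastic fibre and microfibril genes, 9 basement membrane genes and 7 other matrix genes.

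The study measured RNA in peeled urothelium, the lining epithelium of the urinary tract after it was stripped off, from mice with wild-type Stag2 (WT) or with Stag2 knocked out (KO). Stag2 encodes part of cohesin, a ring-shaped complex that tethers sister chromatids and shapes chromatin loops. All animals, WT included, were fed a diet containing TMX for a week, and tissue was taken 1 week or 1 month after that diet began. Each of the 4 groups had 3 libraries, 12 in all, and every library carries its own animal number in its title. The promoter that drives the recombinase, the Stag2 allele, the strain, the sex and the age of the mice are not given in the sources used here, so which cells lost Stag2 cannot be read from the labels.

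Extracellular matrix is laid down mainly by fibroblasts and smooth muscle in the layer under the urothelium, while epithelial and endothelial cells contribute to the basement membrane on which they rest. Wound-type or provisional matrix is the loose, cell-adhesive matrix that appears during repair and growth, built around fibronectin, tenascin-C and the hyaluronan-binding proteoglycan versican. Resident matrix is the lasting framework of small leucine-rich proteoglycans on collagen fibrils, of elastic fibres, and of laminin, nidogen and perlecan in basement membranes.

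The libraries held 5580961 to 9497088 gene counts. Levels are given as CPM (counts scaled to a fixed library total) scaled by TMM within each time, a method that corrects library totals for the makeup of the library. Stag2 itself stood at 110.3 to 156 CPM in WT and 61.6 to 74.6 CPM in KO at 1 week, and at 45.9 to 59.8 CPM in WT and 19.7 to 38.2 CPM in KO at 1 month, so it was lower in every KO library at both times. All 3 KO libraries of 1 week carried 6392 to 10406 counts of Xist and 0 to 4 counts of Y-linked genes. The WT libraries of 1 week carried 1 to 13 and 1360 to 2140. Xist with almost no Y-linked counts marks female tissue, and the reverse marks male tissue. By these counts the comparison at 1 week was of female KO with male WT, so genotype and sex cannot be told apart there. At 1 month KO replicate 3 alone had this Xist pattern, and WT replicate 3 of the same batch had the male pattern. KO replicate 3 of 1 week also stood apart, with a highest rank correlation of 0.836 to any other library of its time. All libraries of 1 week were labelled batch 1, and at 1 month batch 2 held replicates 1 and 2 of both genotypes and batch 3 held replicate 3 of both.

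At 1 week, matrix genes stood higher in KO across nearly the whole set. Of the 45 members that passed the filter on low counts, 40 had a higher and 5 a lower level in KO, where 51.5% of all tested genes were higher, and their median log2 fold change of KO over WT was 1.63, beside 0.02 over all 12754 genes tested. In 28 of the 45, every KO library lay above every WT library, where 12.9% of all tested genes did so, and in 1, Egfl6, every KO library lay below. The edgeR quasi-likelihood test, adjusted over all genes, called 1 member, Vcan, at an adjusted p under 0.05. Of all genes, 0.0627% were called in either direction, 0.0157% as higher and 0.047% as lower. Xist was the only other gene called higher (edgeR adjusted p = 0.0113). Among the genes called lower were Kdm5d, Eif2s3y, Uty and Ddx3y, each on chromosome Y (edgeR adjusted p from 0.0113 to 0.0275). These genes mark sex, so the shares of called genes are not a background free of the sex difference. At an unadjusted p under 0.05, 28 members were higher and 1 lower, beside 10.5% and 5.03% of all genes. DESeq2, on the same counts and design, called 22 members higher and 1 lower, beside 5.4% and 2.12% of all genes.

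**Figure D1:**
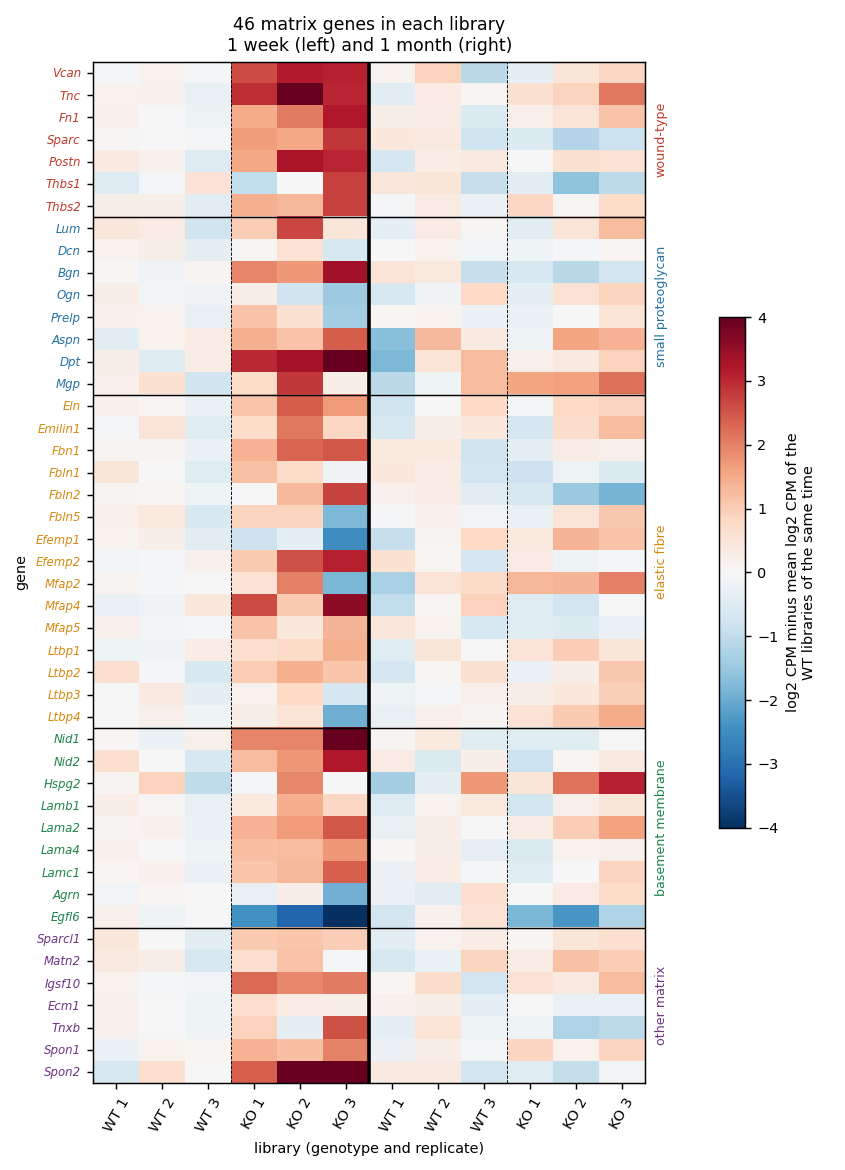
Each cell is the log2 CPM of a gene (row) in a library (column) minus the mean log2 CPM of the 3 WT libraries of the same time, from blue (lower) to red (higher), with the color scale limited to 4 in either direction. Genes are ordered by role, the thick line parts 1 week from 1 month, and the KO columns of 1 week are red in most rows, with Egfl6 blue, while those of 1 month are mixed.

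The wound-type genes were each higher in KO at 1 week, with a median log2 fold change of 2.50, and in 6 of the 7 the genotypes did not overlap. Vcan encodes versican, the large chondroitin sulfate proteoglycan that binds hyaluronan, and lies on chromosome 13 from 89655312 to 89742509 on the minus strand (GRCm38). Its level was 62.9, 70.3 and 60.6 CPM in WT replicates 1 to 3 and 391, 579.6 and 541 CPM in KO replicates 1 to 3. The lowest KO library was thus far above the highest WT library. Vcan rose with a log2 fold change of 3.01 (edgeR adjusted p = 0.0275, SE 0.30, n = 3 per group), a 7.80-fold ratio of mean CPM. This call was lost when any of the 3 WT libraries or KO replicate 2 was left out, with adjusted p up to 0.437 in edgeR, while its log2 fold change stayed between 2.89 and 3.15. The 250 bases before its RefSeq start (GRCm38.p6) are shown because Vcan is the called wound-type gene, 5′ to 3′ on the strand of the gene, with capitals for the 2 matches to the GC box GGGCGG on either strand.
Vcan (chr13:89742513-89742762, minus strand): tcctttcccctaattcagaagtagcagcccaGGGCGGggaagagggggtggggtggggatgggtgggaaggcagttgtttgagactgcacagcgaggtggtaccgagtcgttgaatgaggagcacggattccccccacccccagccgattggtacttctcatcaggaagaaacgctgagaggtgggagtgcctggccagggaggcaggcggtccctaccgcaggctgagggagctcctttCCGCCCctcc

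Tnc encodes tenascin-C, an oligomeric glycoprotein of healing and growing tissue. Its level was 23.7, 24.1 and 17.5 CPM in WT and 169, 364 and 178.5 CPM in KO at 1 week. All KO libraries lay above all WT libraries, and the log2 fold change of 3.48 (SE 0.40) had an edgeR adjusted p of 0.0505, just over the threshold. Postn encodes periostin, a matricellular protein that binds integrins and collagen, and its level was 6.92, 6.07 and 3.67 CPM in WT and 16.01, 53.9 and 45.9 CPM in KO. KO replicate 1 was the lowest of the KO libraries and still above WT, and the log2 fold change was 2.84 (SE 0.53, edgeR adjusted p = 0.106).

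Sparc encodes a collagen-binding matricellular protein also called osteonectin. At 1 week it stood at 864, 824 and 801 CPM in WT and at 2656, 2449 and 5993 CPM in KO, with KO replicate 3 more than the other KO libraries. The genotypes did not overlap, and the log2 fold change was 2.22 (SE 0.44, edgeR adjusted p = 0.110). The other wound-type genes, which encode fibronectin and the thrombospondins, had log2 fold changes of 2.50 for Fn1, 1.45 for Thbs1 and 2.02 for Thbs2. Thbs1 was the wound-type gene whose genotypes overlapped, since KO replicates 1 and 2 at 20.5 and 40.4 CPM lay within the WT range of 28.5 to 62.0 CPM or under it, and KO replicate 3 alone was at 277 CPM.

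Among the small proteoglycans and stromal proteins the members differed from each other. The median log2 fold change of the 8 was 1.64 at 1 week, 7 were higher in KO, and in 4 (Lum, Bgn, Aspn and Dpt) the genotypes did not overlap. Bgn and Dcn encode biglycan and decorin, closely related leucine-rich proteoglycans of collagen fibrils, and their values differed. Bgn stood at 185, 164 and 192 CPM in WT and at 700.2, 604 and 1842 CPM in KO, without overlap, with a log2 fold change of 2.61 (edgeR adjusted p = 0.109, SE 0.50). Like Egfl6, Bgn lies on chromosome X, and the part of the Xist pattern in its difference was not tested.

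Dcn stood at 1912, 2079 and 1354 CPM in WT and at 1824, 2629.8 and 1127 CPM in KO. The KO libraries lay on both sides of the WT range, and the log2 fold change was 0.10 (SE 0.38, edgeR adjusted p = 0.909). The sign of this difference turned when KO replicate 2 was left out or when WT replicate 3 was left out, with values from -0.24 to 0.31.

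Dpt encodes dermatopontin, a small protein that binds decorin and aids collagen fibril assembly. Its level was 6.55, 3.81 and 6.93 CPM in WT and 46.2, 58.1 and 116 CPM in KO at 1 week. The genotypes were well separated, with a log2 fold change of 3.72 (edgeR adjusted p = 0.0799, SE 0.49), a 12.7-fold ratio of mean CPM. Mgp, matrix Gla protein, an inhibitor of calcification, overlapped at this time: 239.5, 321 and 119 CPM in WT against 345, 1485 and 247 CPM in KO, with KO replicate 2 far above the others.

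The elastic fibre genes had the smallest median of the 5 groups at 1 week, a log2 fold change of 1.06 over 14 tested members. Of these, 12 were higher in KO, 7 of them without overlap. Fbn1 encodes fibrillin-1, the main protein of microfibrils, and stood at 64.0, 63.6 and 50.4 CPM in WT and 156, 298.5 and 328 CPM in KO. Its genotypes did not overlap, and the log2 fold change was 2.19 (SE 0.36, edgeR adjusted p = 0.0927).

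Fbln2, which encodes fibulin-2, an elastin- and basement-membrane-associated glycoprotein, was uneven among KO libraries at 1 week. It stood at 24.2, 24.0 and 19.9 CPM in WT and at 22.9, 55.8 and 148 CPM in KO. KO replicate 1 lay within the WT range, and the log2 fold change of 1.80 (SE 0.64) had an edgeR adjusted p of 0.252. The 250 bases before its RefSeq start are shown for comparison with Vcan, since Fbln2 was called in the opposite direction at 1 month, with capitals for the 1 match to GGGCGG. That start lies downstream of the GENCODE start at 91212455, so this window falls inside the GENCODE span of the gene.
Fbln2 (chr6:91212514-91212763, plus strand): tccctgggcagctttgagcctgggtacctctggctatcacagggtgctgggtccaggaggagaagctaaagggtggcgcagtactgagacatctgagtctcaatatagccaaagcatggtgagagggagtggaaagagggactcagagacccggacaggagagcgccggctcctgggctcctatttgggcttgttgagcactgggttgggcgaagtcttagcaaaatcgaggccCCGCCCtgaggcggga

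Fbln1 encodes fibulin-1 and overlapped between genotypes, at 109.9 to 212 CPM in WT and 138 to 344 CPM in KO. Ltbp4, a latent TGF-beta binding protein of elastic fibres, stood at 95.2, 109 and 84.3 CPM in WT and 113.5, 141 and 24.4 CPM in KO, so that KO replicate 3 was the lowest of all libraries of that time and the others the highest. Mfap2, a microfibril-associated glycoprotein, had the same spread, from 0.977 CPM in KO replicate 3 to 17.6 CPM in KO replicate 2, with WT at 3.92 to 4.45 CPM. Ltbp2 had 0 to 9 counts in any library and was the member removed by the filter on low counts.

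Of the 9 basement membrane genes, 7 were higher in KO at 1 week, 6 of them without overlap, and the median log2 fold change was 1.47. Lama2 encodes the laminin alpha chain of muscle and stromal basement membranes, and stood at 19.8, 20.7 and 15.3 CPM in WT and 48.6, 61.3 and 104 CPM in KO. All KO libraries were above WT, with a log2 fold change of 1.99 (edgeR adjusted p = 0.107, SE 0.37). Lamb1, a laminin beta chain, stood at 112, 96.5 and 76.5 CPM in WT and at 122, 258 and 166 CPM in KO, a narrow gap between the genotypes and a log2 fold change of 0.98 (edgeR adjusted p = 0.246, SE 0.34). Hspg2 and Agrn, which encode the heparan sulfate proteoglycans perlecan and agrin, overlapped between genotypes, at 7.03 to 27.2 CPM in WT and 13.9 to 54.7 CPM in KO for Hspg2, and 105 to 120.5 CPM in WT and 29.7 to 136 CPM in KO for Agrn.

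Egfl6 went the other way from most of the set. It encodes a secreted protein with EGF repeats and a MAM domain that is deposited in basement membranes, and it lies on chromosome X from 166523007 to 166585720 on the minus strand. At 1 week it had 150, 116 and 152 counts in WT and 21, 14 and 0 counts in KO, which is 18.5, 13.8 and 15.95 CPM against 2.78, 1.56 and 0 CPM. Every KO library was below every WT library, where 13.9% of all tested genes were, with a log2 fold change of -3.36 (edgeR adjusted p = 0.146, SE 0.85). The part of the Xist pattern in this difference was not tested at 1 week. The 250 bases before its RefSeq start, which lies just inside the GENCODE span, are shown because Egfl6 was below WT at both times, with capitals for the 1 match to GGGCGG.
Egfl6 (chrX:166585717-166585966, minus strand): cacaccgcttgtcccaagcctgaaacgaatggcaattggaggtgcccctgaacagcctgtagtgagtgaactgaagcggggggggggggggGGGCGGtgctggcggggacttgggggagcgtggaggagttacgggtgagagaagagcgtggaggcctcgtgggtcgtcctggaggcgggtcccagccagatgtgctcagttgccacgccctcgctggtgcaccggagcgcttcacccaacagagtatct

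The 7 other matrix genes were each higher in KO at 1 week, with a median log2 fold change of 1.59. Igsf10, an immunoglobulin superfamily member that is secreted, was the most even, at 23.7, 20.7 and 20.04 CPM in WT and 104, 82.6 and 92.2 CPM in KO. The libraries of each genotype were close to each other and the genotypes far apart, with a log2 fold change of 2.16 (edgeR adjusted p = 0.0580, SE 0.27). Spon2, which encodes spondin-2 or mindin, a matrix protein that binds microbial surface molecules and integrins, was the most uneven, at 3.71, 9.28 and 5.88 CPM in WT and 32.0, 166.5 and 461.5 CPM in KO. All KO libraries were above WT but spread widely, and the log2 fold change of 5.19 (SE 1.00) had an edgeR adjusted p of 0.109.

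Sparcl1, which encodes the Sparc-related protein hevin, stood at 728, 521 and 384 CPM in WT and at 1097, 1135 and 1041 CPM in KO at 1 week. The genotypes did not overlap, with a log2 fold change of 1.05 (edgeR adjusted p = 0.198, SE 0.32). Ecm1, extracellular matrix protein 1, which binds perlecan and fibulin-1, had the smallest difference of this group, from 77.4 to 97.3 CPM in WT and 104 to 138 CPM in KO, which gave 0.46 on the log2 scale. Its exons overlap the microRNA gene Mir7014 on the same strand.

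**Figure D2:**
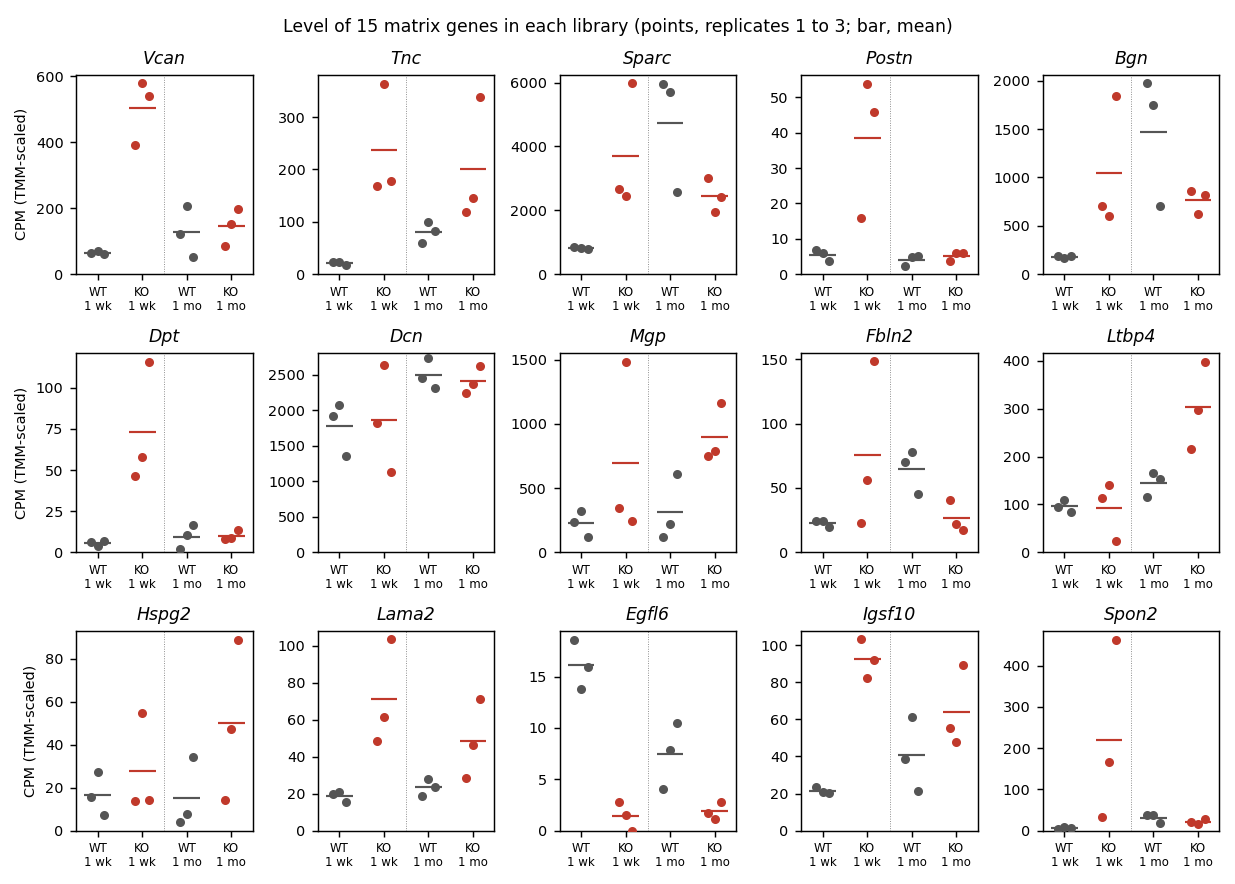
TMM-scaled CPM (vertical axes, from 0) of 15 members in each library, WT in grey and KO in red, at 1 week (wk) and 1 month (mo), with points for replicates 1 to 3 and a bar for the mean. Vcan, Tnc, Sparc, Postn, Bgn, Dpt, Lama2, Igsf10 and Spon2 separate by genotype at 1 week and Egfl6 separates in the opposite direction, while at 1 month Tnc, Mgp, Ltbp4, Lama2, Fbln2 and Egfl6 separate. Scaling was done within each time, so heights are compared between genotypes and not between times.

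The wound-type and resident groups can be set side by side by their sums. At 1 week the summed level of the wound-type genes was 1006 to 1071 CPM in the WT libraries and 3457 to 7657 CPM in the KO libraries, a 4.77-fold ratio of means, in which Sparc weighs most. The summed level of the 39 resident genes was 3037 to 4348 CPM in WT and 6095 to 8606 CPM in KO, a 1.88-fold ratio. In this sum Dcn weighs most, with mean levels of 1781 CPM in WT and 1860 CPM in KO, so the ratio is held down by a gene with little difference. By gene, the median log2 fold change was 2.50 over the 7 wound-type genes and 1.43 over the 38 tested resident genes, of which 22 were above WT without overlap. DESeq2 called 6 of the 7 wound-type genes and 16 of the 38 resident genes higher. Both groups were thus higher in KO. Whether they differed from each other was not tested.

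Leaving out libraries changed how many members passed the edgeR threshold at 1 week much more than it changed directions, which 41 to 45 of the 45 members kept. The count was 0 without any of the WT libraries or without KO replicate 2, 7 without KO replicate 1, and 17 without KO replicate 3, the library that stood apart. These 17 were 16 higher members, among them Vcan, Tnc, Sparc, Postn, Bgn, Dpt, Fbn1, Lama2, Igsf10 and Spon2, and Egfl6 as the lower member. Calls over all genes moved as well, at 0, 0 and 1 without WT replicates 1, 2 and 3. They were 2 of 13035 without KO replicate 2, 56 of 13064 without KO replicate 1 and 320 of 13059 without KO replicate 3. KO replicate 3 held the highest level of 21 members and the lowest of 10 at 1 week. Over all members the median log2 fold change was 1.29 without KO replicate 3 and 1.88 without KO replicate 1. It was 0.56 over the small proteoglycans without KO replicate 2, and 1.02 over the other matrix genes without KO replicate 3. With each library left out in turn, 28 to 35 members had every KO library above every WT library. Fewer libraries make such separation easier and keep what was already separate, so this count could not show a loss. The share of all genes under the same omission is not given here.

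At 1 month the set no longer stood to one side. Of the 45 tested members, 28 were higher and 17 lower in KO, where 49.6% of all tested genes were higher, and the median log2 fold change was 0.31, beside -0.01 over all 12139 genes tested. The edgeR test with batch as a covariate called 4 members, where 2.22% of all genes were called, 0.997% as higher and 1.22% as lower. Mgp and Ltbp4 rose, and Fbln2 and Egfl6 fell. At an unadjusted p under 0.05, 10 members were higher and 6 lower, beside 11.1% and 10.3% of all genes. In 7 members every KO library lay above every WT library and in 2 below, where 6.88% and 6.45% of all tested genes did so. DESeq2 called 6 members higher and 3 lower, beside 3.86% and 2.86% of all genes. Without the batch covariate edgeR called 0 members, as it did without WT replicate 2 or KO replicate 2, while 11 were called without WT replicate 3 and 10 without KO replicate 3. Calls over all genes moved as well. They were 0 of 12139 without the covariate, 45 of 12466 without WT replicate 2 and 84 of 12460 without KO replicate 2. Without WT replicate 3 they were 1522 of 12348, and without KO replicate 3 they were 1513 of 12351. The median over the members ranged from 0.03 without WT replicate 3 or KO replicate 3 to 0.52 without WT replicate 2.

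Mgp stood at 120.0, 223 and 608 CPM in WT and at 749, 788 and 1164 CPM in KO at 1 month. The highest WT library, of batch 3, was still below the lowest KO library. The log2 fold change was 1.71 (SE 0.31, edgeR adjusted p = 0.0218), with 2.23 within batch 2 and 0.94 within batch 3. Mgp lies on chromosome 6 from 136872435 to 136875823 on the minus strand.

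Ltbp4 stood at 114.5, 165 and 152.5 CPM in WT and at 215, 296 and 398 CPM in KO. The genotypes did not overlap, and the log2 fold change was 0.99 (SE 0.24, edgeR adjusted p = 0.0476), with 0.87 within batch 2 and 1.38 within batch 3. Ltbp4 lies on chromosome 7 from 27305136 to 27337692 on the minus strand, and its call was the least firm of the 4, lost in 10 of 16 alternative settings.

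Fbln2 stood at 70.4, 78.0 and 45.6 CPM in WT and at 40.3, 22.2 and 17.1 CPM in KO at 1 month. Every KO library was below every WT library, the reverse of its order at 1 week in KO replicates 2 and 3. The log2 fold change was -1.34 (SE 0.25, edgeR adjusted p = 0.0212), with -1.30 within batch 2 and -1.40 within batch 3. Fbln2 lies on chromosome 6 from 91212455 to 91272540 on the plus strand.

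Egfl6 was lower in KO at 1 month as well, with 21, 45 and 69 counts in WT and 14, 7 and 18 counts in KO. In CPM these were 4.08, 7.82 and 10.5 against 1.74, 1.14 and 2.79, without overlap. The log2 fold change was -2.02 (SE 0.43, edgeR adjusted p = 0.0327). The difference was -1.79 within batch 2, where no library carried the Xist pattern, and -1.79 within batch 3, where the KO library did. Egfl6 was the 1 member below WT without overlap at both times.

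Of the 7 members above WT without overlap at 1 month, 3 were so at 1 week too: Tnc, Lama2 and Ltbp1, the last named after its values were seen. Tnc stood at 58.9, 99.2 and 81.9 CPM in WT and 119, 145 and 338 CPM in KO at 1 month, with a log2 fold change of 1.12 (edgeR adjusted p = 0.0691, SE 0.30). Lama2 stood at 18.7, 28.2 and 23.5 CPM in WT and 28.5, 46.3 and 71.4 CPM in KO, with a log2 fold change of 0.94 (edgeR adjusted p = 0.0953, SE 0.29). In both genes KO replicate 3 was the highest, and the difference within batch 3, at 2.04 for Tnc and 1.59 for Lama2, was larger than within batch 2, at 0.78 and 0.66.

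Hspg2 and Mfap2 also had higher mean levels in KO at 1 month. Hspg2 stood at 3.89, 7.65 and 34.3 CPM in WT and 14.3, 47.4 and 88.8 CPM in KO at 1 month, so that its log2 fold change was 1.95 (edgeR adjusted p = 0.0673, SE 0.47). Both genotypes were highest in batch 3, and the genotypes overlapped only across batches. Mfap2 stood at 1.36, 5.73 and 6.67 CPM in WT and 10.0, 10.2 and 16.5 CPM in KO, without overlap, with a log2 fold change of 1.37 (edgeR adjusted p = 0.0939, SE 0.42).

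The wound-type genes other than Tnc showed no common direction at 1 month. Vcan stood at 123, 208 and 52.7 CPM in WT and at 86.9, 154 and 198 CPM in KO, with a log2 fold change of 0.23 (edgeR adjusted p = 0.840, SE 0.56). Its difference was -0.47 within batch 2 and 1.90 within batch 3, so the batches had opposite signs. Postn stood at 2.33 to 5.002 CPM in WT and 3.84 to 6.01 CPM in KO and overlapped.

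Sparc and Bgn had a parallel pattern at 1 month, in which the difference stood in batch 2. Sparc stood at 5945, 5716 and 2572 CPM in WT and at 3013, 1948 and 2425 CPM in KO, with a log2 fold change of -0.90 (edgeR adjusted p = 0.128, SE 0.31), -1.27 within batch 2 and -0.08 within batch 3. Bgn stood at 1973, 1744 and 706 CPM in WT and at 857, 619 and 814.5 CPM in KO, with a log2 fold change of -0.88 (edgeR adjusted p = 0.143, SE 0.32), -1.35 within batch 2 and 0.21 within batch 3. In both genes the batch 2 WT libraries stood apart from the other 4. When batch 2 was fitted alone, 11 members were called, 3 higher and 8 lower, with Sparc and Bgn among the lower. That fit called 1474 of all 12103 genes tested.

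The remaining named members overlapped between genotypes at 1 month. Dcn stood at 2318 to 2728 CPM in WT and 2235 to 2623 CPM in KO, and Sparcl1 at 999 to 1645 CPM in WT and 1422 to 2090.1 CPM in KO. Dpt, Fbn1, Igsf10 and Spon2, which had been apart at 1 week, stood at 1.75 to 16.8, 37.0 to 85.2, 21.5 to 61.3 and 17.9 to 38.5 CPM in WT and at 8.06 to 13.3, 48.5 to 79.2, 47.9 to 89.4 and 15.1 to 27.5 CPM in KO. Fbln1, Lamb1, Agrn and Ecm1 had log2 fold changes of -0.56, -0.04, 0.31 and -0.23.

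**Figure D3:**
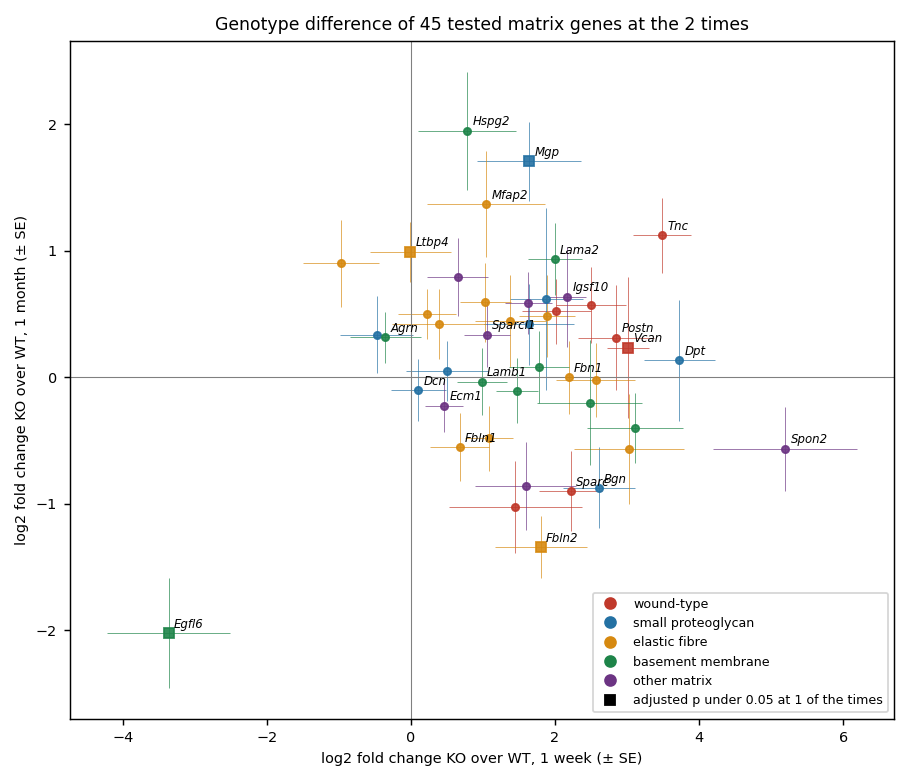
The log2 fold change of KO over WT at 1 week (horizontal axis) against that at 1 month (vertical axis) for the 45 tested members, colored by role, with bars of ± 1 SE, and with squares for members with an adjusted p under 0.05 at 1 of the times. Most points lie to the right of 0 and spread around 0 in height, and Egfl6 is the only point at the lower left.

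The difference between the genotype effects of the 2 times was tested as an interaction over all 12 libraries. Time and batch cannot be told apart in this fit. Sex is mixed into this difference too. By the Xist and Y-linked counts it followed genotype at 1 week, while at 1 month only KO replicate 3 had the female pattern. In 34 of the 45 members the log2 fold change of KO over WT was lower at 1 month than at 1 week and in 11 higher. It was higher in 48.3% of all tested genes. The median difference was -1.22 on the log2 scale, beside -0.04 over all 13122 genes tested. Lower and higher here give the sign of the difference and not the size of the effect. Egfl6, for example, is among the 11, with log2 fold changes of -3.36 at 1 week and -2.02 at 1 month. The edgeR test called 0 members, as it called 0% of all genes. At an unadjusted p under 0.05, 23 members had a lower and 1 a higher log2 fold change at 1 month, beside 12% and 7.87% of all genes. DESeq2 called 15 members lower, beside 4.67%. The 7 wound-type genes were all among the 34, with a median difference of -2.47, and the median over the tested resident genes was -1.04.

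The smallest adjusted p in the interaction, 0.0879 in edgeR, was shared by Sparc, Bgn and Spon2, with differences of -3.11 (SE 0.58), -3.47 (SE 0.67) and -5.75 (SE 1.11). Vcan had a difference of -2.77 (SE 0.66, edgeR adjusted p = 0.104) and Tnc of -2.35 (SE 0.55, edgeR adjusted p = 0.104). By sign, 24 of the 45 members were higher in KO at both times, 16 were higher at 1 week and lower at 1 month, 4 were lower at 1 week and higher at 1 month, and Egfl6 was lower at both. Ltbp4, Agrn, Ogn and Efemp1 were the 4, of which the last pair was named after the values were seen.

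Markers of other cell types were summed in the same libraries. At 1 week the summed level of 10 fibroblast markers was 2374 to 3907 CPM in WT and 3882 to 7707 CPM in KO, with 10 of 10 higher and 0 called by edgeR. At an unadjusted p under 0.05, 4 were higher, beside 10.5% of all genes, and DESeq2 called 3 higher, beside 5.4%. The 6 smooth muscle markers summed to 117 to 287 CPM in WT and 352 to 1066 CPM in KO, and the 6 endothelial markers to 169 to 199 CPM in WT and 273 to 435 CPM in KO. The 9 leukocyte markers summed to 149 to 257 CPM in WT and 278 to 581 CPM in KO, with the B-cell marker Cd79a at or near 0 counts. The dividing-cell markers, 6 in number, summed to 24.6 to 26.3 CPM in WT and 125 to 794 CPM in KO. At an unadjusted p under 0.05, 4 of 6 smooth muscle, 2 of 6 endothelial, 3 of 7 tested leukocyte and 6 of 6 dividing-cell markers were higher and 0 lower. EdgeR called 0 of them, and DESeq2 called 1, 2, 2 and 6 higher. Of the smooth muscle markers, Des was lower in KO, and Acta2, Des and Cnn1 overlapped between genotypes. The part of these cell types in the matrix differences was not tested, and in bulk tissue fewer or more cells of a type and less or more RNA per cell cannot be told apart.

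The ratio of mean sums at 1 week was 1.93 for the fibroblast, 4.41 for the smooth muscle, 1.91 for the endothelial and 1.88 for the leukocyte markers, beside 4.77 for wound-type and 1.88 for resident matrix. In KO replicate 3 the fibroblast sum, in which Col1a1, Col1a2 and Col3a1 weigh most, was the lowest of the KO libraries while the wound-type sum was the highest. By gene the fibroblast markers were split. Pdgfra, at 134, 159 and 684 CPM in KO replicates 1 to 3, Col6a2 and Pi16 were highest in KO replicate 3. Col1a1, Col1a2, Col3a1, Pdgfrb, Thy1 and Clec3b were lowest there, and Col6a1 lay between. The 15 urothelial markers summed to 14079 to 17084 CPM in WT and 12411 to 15528 CPM in KO, so the labelled tissue was present in every library beside stromal RNA. Sums are led by the most abundant markers. By mean log2 CPM at 1 week, fibroblast markers stood at 6.37 to 6.82 in WT and 7.32 to 7.63 in KO. Urothelial markers stood at 9.16 to 9.41 in WT and 8.75 to 9.11 in KO. Neither list overlapped by this measure, nor did endothelial markers, while smooth muscle and leukocyte markers overlapped. At 1 month the fibroblast sum was 7916 to 11454 CPM in WT and 6181 to 8066 CPM in KO, and the leukocyte sum 622 to 1241 CPM in WT and 324 to 391 CPM in KO. The endothelial sum at 1 month was 154 to 192 CPM in WT and 219 to 402 CPM in KO, so every KO library lay above every WT library, with a 1.87-fold ratio of means. Of these 6 markers 5 were higher and edgeR called 0. At an unadjusted p under 0.05, 4 were higher, beside 11.1% of all genes, and DESeq2 called 3 higher, beside 3.86%. The smooth muscle sum overlapped, at 91.6 to 934 CPM in WT and 146 to 426 CPM in KO. The part of these cells in the levels of Mgp, Ltbp4, Tnc, Lama2 and Hspg2 at 1 month was not tested. Among these markers edgeR called Pdgfrb higher at 1 month, with a log2 fold change of 1.30 (adjusted p = 0.0218), and Csf1r, C1qa, Cd74 and Krt20 lower, with -1.13, -1.95, -1.76 and -1.76 and adjusted p from 0.00344 to 0.0429. Their lists were mixed, save the leukocytes, with 6 of 6 tested lower. Fibroblast markers were 4 higher and 6 lower, urothelial markers 5 higher and 10 lower. At an unadjusted p under 0.05 these were 1 and 2, and 3 and 5, beside 11.1% and 10.3% of all genes. EdgeR called 0.997% of all genes higher and 1.22% lower. Pdgfrb encodes a growth factor receptor of pericytes and fibroblasts, Csf1r, C1qa and Cd74 mark macrophages and antigen-presenting cells, and Krt20 is a keratin of superficial urothelium.

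**Figure D4:**
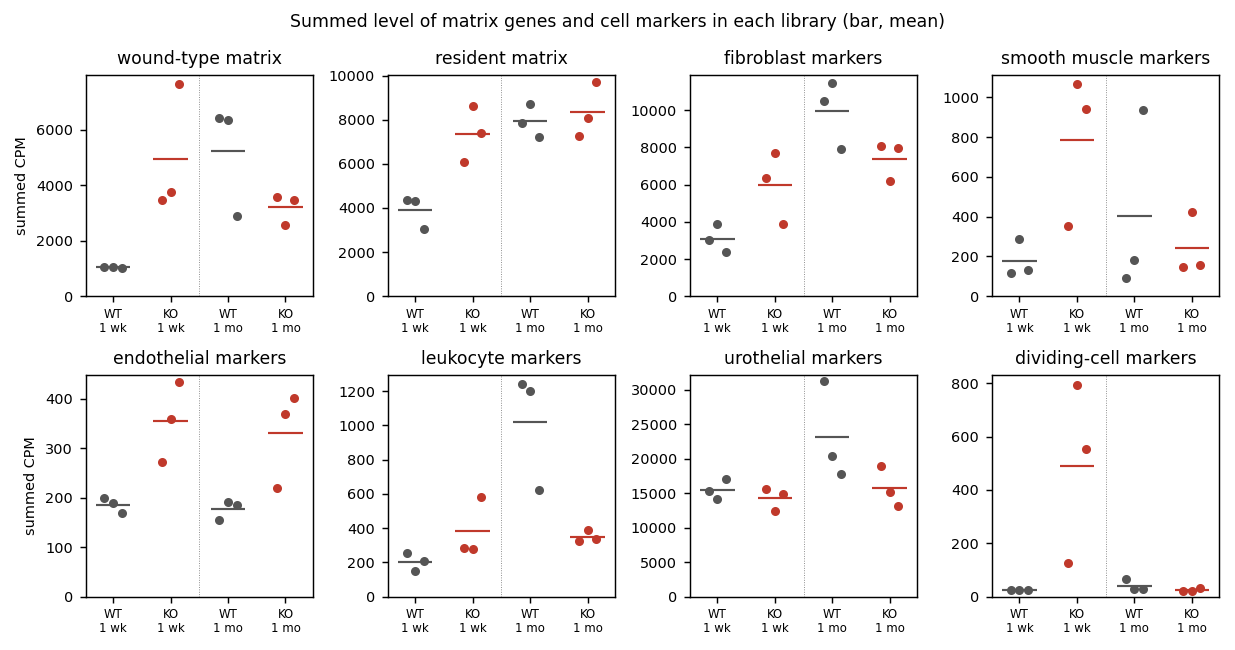
Summed TMM-scaled CPM (vertical axes, from 0) of the 7 wound-type genes, the 39 resident genes and 6 lists of cell markers in each library, WT in grey and KO in red, with a bar for the mean. At 1 week the wound-type and resident sums of KO lie above WT, as do those of the smooth muscle, endothelial, leukocyte and dividing-cell markers. The fibroblast sums overlap slightly and the urothelial sums overlap, though by mean log2 CPM, not drawn here, both lists separate by genotype.

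Genes that act on or read this matrix were described in the same way. Of 22 matrix receptors, integrins and syndecans among them, 21 were tested at 1 week, 16 higher and 5 lower, with a median log2 fold change of 0.69. EdgeR called 0 of them. At an unadjusted p under 0.05, 8 were higher and 1 lower, beside 10.5% and 5.03% of all genes, and DESeq2 called 2 higher and 1 lower, beside 5.4% and 2.12%. Of 15 genes of the TGF-beta pathway, which latent TGF-beta binding proteins and fibrillin hold in the matrix, 10 were higher and 5 lower at 1 week, with a median of 0.71. EdgeR called 0 of these, 3 were higher and 0 lower at an unadjusted p under 0.05, and DESeq2 called 1 higher and 0 lower, beside the same shares of all genes.

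Of 11 genes that make hyaluronan or cut hyaluronan and versican, 9 were tested at 1 week, 6 higher and 3 lower, with a median log2 fold change of 2.09. EdgeR called 0, while 5 were higher and 0 lower at an unadjusted p under 0.05, beside 10.5% and 5.03% of all genes, and DESeq2 called 5 higher, beside 5.4%. Of this list, Adamts4 and Adamts9, proteases that cleave versican, were singled out after their values were seen. Adamts4 had 0 counts in each WT library and 25, 176 and 66 counts in KO at 1 week (edgeR adjusted p = 0.0937). Adamts9 stood at 1.98, 2.85 and 3.25 CPM in WT and 12.6, 11.03 and 11.9 CPM in KO at 1 week (edgeR adjusted p = 0.0937), and at 3.31, 5.73 and 5.91 CPM in WT and 10.5, 12.5 and 16.9 CPM in KO at 1 month (edgeR adjusted p = 0.0505). Both proteases were thus above WT in every KO library at both times and did not pass the threshold at either.

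At 1 month the receptor, hyaluronan and TGF-beta lists had median log2 fold changes of 0.14, 0.26 and 0.27, and edgeR called 0 of them. At an unadjusted p under 0.05, 2 of 20, 2 of 8 and 2 of 14 were higher, beside 11.1% of all genes, and 1, 1 and 0 were lower, beside 10.3%. DESeq2 called 1, 2 and 2 higher, beside 3.86% of all genes, and 0 lower in each list, beside 2.86%.

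The promoter windows printed above for Vcan, Fbln2 and Egfl6 can be compared with those of the other members. RefSeq (GRCm38.p6) gave promoter sequence for 31 of the 46 members, which had 42 annotated starts between them. The 250 bases before each start were searched on both strands for GGGCGG (the GC box), CAGAC (a Smad-binding core), TATAAA (the TATA box), GGAATG (a TEAD-type core) and TGANTCA (an AP-1 site). GGGCGG was found before 59.5% of the members' starts and 32.7% of all 32851 starts, and CAGAC before 47.6% and 42.2%. TATAAA was found before 16.7% and 12.4%, GGAATG before 9.52% and 12.6%, and TGANTCA before 7.14% and 6.75%. The 3 printed windows held GGGCGG and none of the other letters searched, although Vcan was higher in KO where called and Fbln2 and Egfl6 were lower. Their G and C content was 62.4% for Vcan, 58.8% for Fbln2 and 64.8% for Egfl6. These shares describe letters in a window and not binding.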

How the data were processed

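The authors deposited 1 table of raw counts per gene for each time, with a column for each library and the same 23337 symbols. Per the labels' protocols, total RNA was made into sense-strand libraries that read the 3′ ends of polyadenylated transcripts (QuantSeq 3′ FWD), so a count does not scale with transcript length and depends on 3′ annotation. The submitters' processing notes list Bowtie, TopHat, HTSeq, DESeq2 and mm10, with versions not given in the sources used here. No column was left unassigned, and no pair of replicates agreed within sampling noise.

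The labels' genotype and time define the groups. Nothing beyond the animal numbers in the titles says that libraries are separate cultures or litters, so p-values measure the spread between these libraries. For WT replicate 3 at 1 month the animal number in the title is not that of its library name, which is the one found in the column header.

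The main test was edgeR 4.0.16 (R 4.3.3), quasi-likelihood with robust dispersions, TMM and filterByExpr, two-sided. A gene was called at a Benjamini-Hochberg adjusted p under 0.05, adjusted over every gene in the fit. The 6 libraries of a time were fitted together, at 1 month with a batch term, and the interaction used all 12 libraries. An SE was derived from the log2 fold change and the F value of its test, and logarithms of CPM were taken with a prior count of 2. The steps were tested on simulated data.

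DESeq2 1.42.0, other scalings and filters, single batches and leaving out each library were alternatives. Counts of genotypes without overlap with each library left out were added after seeing the data. Named members are those called in any comparison, the 8 with the smallest p at each time and the 2 with the highest mean CPM in each role. The members and lists were chosen with earlier results of these data known, and a list is described by its counts and median with no test of its own. Coordinates are from GENCODE on GRCm38. Ccn1, Ccn2 and Adgre1 were matched through older symbols.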

Additional observations from a re-analysis of the deposited data

How the results depend on the processing

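No paired analysis was possible because the labels give no replicate numbers and the libraries were numbered in accession order.

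At 1 week the number of members called, 1, was 5 with no filter on low counts, 23 by DESeq2, 2 without robust dispersions and 20 in 1 fit of all 12 libraries, and 0 to 17 with each library left out. It was 1 under both other scalings and with a mean of at least 20 counts. Calls over all genes at 1 week were 8 of 12754 in the main fit, 62 of 18900 with no filter and 957 of 12726 by DESeq2. They were 11 of 12754 without robust dispersions, 553 of 13122 in 1 fit of all 12 libraries and 0 to 320 with each library left out. At 1 month the number, 4, was 13 with no filter, 9 by DESeq2, 0 in 1 fit of all 12 libraries, 0 with no batch covariate and 11 in batch 2 alone, and 0 to 11 with each library left out. It was 0 without WT replicate 2 or KO replicate 2, 2 without WT or KO replicate 1, 11 without WT replicate 3 and 10 without KO replicate 3. Calls over all genes at 1 month were 269 of 12139 in the main fit, 1276 of 17990 with no filter and 768 of 11433 by DESeq2. They were 0 in 1 fit of all 12 libraries, 0 with no batch covariate, 1474 of 12103 in batch 2 alone and 45 to 1522 with each library left out. In the interaction the number, 0, was 6 with no filter, 15 by DESeq2 and 1 without batch 3, and 0 to 9 with each library left out. Over all genes the interaction called 0 of 13122 in the main fit, 137 of 19564 with no filter and 917 of 13101 by DESeq2. It called 15 of 13504 without batch 3 and 0 to 440 with each library left out. Members above WT without overlap numbered 28 to 35 at 1 week and 7 to 18 at 1 month with each library left out (11 without WT replicate 3 and 18 without KO replicate 1). Such counts can rise but not show a loss when a library is left out, and no matching share of all genes is given.

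Signs turned at 1 month for Vcan in batch 2 alone (-0.51), for Dcn with total count scaling (0.12) and in batch 3 (0.18), for Bgn (0.21), Fbln1 (0.21) and Ecm1 (0.15) in batch 3, and for Lamb1 with total count scaling (0.20), no filter (0.015) and batch 3 (0.12). Within-batch differences also had opposite signs for Spon2 (-1.08 in batch 2, 0.61 in batch 3), Dpt (0.91, -0.33) and Fbn1 (-0.45, 1.00). With each library left out, signs turned at 1 week for Dcn (-0.24 to 0.31), Ltbp4 (-0.46 to 0.39) and Agrn (-0.87 to 1.07e-05), at 1 month for Vcan (-0.52 to 0.78) and Lamb1 (-0.31 to 0.25), and in the interaction for Mgp (-0.32 to 1.30) and Mfap2 (-0.16 to 1.50). The cause was not tested.

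Total count scaling moved the median of all genes by 0.22 at 1 month and by 0.25 in the interaction, and 40 of 45 members kept their sign at 1 month. Of the log2 fold changes of named members under the alternatives, 611 kept their direction and side of the threshold, 89 newly passed it, 29 lost it, 25 turned and 5 moved. Ltbp2, at 0 to 9 counts in any library, was removed by the filter on low counts.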
